A study of Macaca mulatta with 8 samples.

Results

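The PLPPR genes (phospholipid phosphatase related) form a family of 5 members, PLPPR1 to PLPPR5, and all 5 were found by symbol among the 26533 features counted in single retinal cells of 2 rhesus macaques. PLPPR5 was chosen by its own values: its level in rod-like cells differed between the 2 vector blebs of one animal, so that contrast is described here without a test, and the other 4 members were taken with it by name alone. Each of 8 libraries was a droplet 5′ gene expression library of dissociated neural retina, and 4 groups held 2 libraries each, one from the right eye and one from the left.

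NHP1 uninjected was retina labelled uninjected from a male aged 5 years whose eyes had both received AAV2-CAG-hRPE65 under the retina. NHP2 uninjected, NHP2 hRPGR and NHP2 mScarlet came from one male aged 6 years, the last 2 from blebs of AAV8-GRK1-hRPGR and AAV8-GRK1-mScarlet placed in separate quadrants of the same eyes. GRK1 is the promoter of a photoreceptor kinase, which drives a transgene in photoreceptors, while CAG is active in most cells. By the study's methods every eye had a depot of triamcinolone, a steroid, and the left eyes also had intravitreal adalimumab, an antibody against tumour necrosis factor. Vector, its dose and grade of preparation, which the paper gives as different for hRPGR and mScarlet, and place in the retina cannot be told apart. The 2 libraries of a group are eyes of 1 animal, so p-values of contrasts between groups measure the spread between eyes. No p-value here measures the spread between animals.

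PLPPR proteins are membrane relatives of the lipid phosphate phosphatases, the enzymes that remove the phosphate from signalling lipids such as lysophosphatidic acid (LPA). They keep the membrane-spanning fold of those enzymes but lack residues needed for catalysis, and they are known mainly from neurons, where they promote outgrowth of filopodia and neurites. PLPPR4, the best studied member, sits at excitatory synapses and limits the action of bioactive phospholipids there. In the retina, rods and cones pass their signal to bipolar cells, horizontal and amacrine cells shape it, ganglion cells carry it to the brain, and Müller glia span the tissue.

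On the macaque build Mmul_10, PLPPR5 (ENSMMUG00000008518) lies on chromosome 1 from 125129261 to 125247917 on the plus strand, with 6 annotated transcripts of 6 to 7 exons. PLPPR4 (ENSMMUG00000021030) lies on the same chromosome from 124822568 to 124867879 on the minus strand, so the 2 genes stand head to head with a gap of 261 kb. PLPPR1 (ENSMMUG00000001827) lies on chromosome 15 from 41577673 to 41870759, while PLPPR2 (ENSMMUG00000022207, 11112789 to 11123753) and PLPPR3 (ENSMMUG00000016456, 580067 to 591005) are short genes on chromosome 19. The 250 bases before the commonest annotated start are shown for the neighbours PLPPR5 and PLPPR4, because these neighbours differed in the cell classes that led them. They were read from the Mmul_10 genome, 5′ to 3′ on each gene's own strand, at chr1:125130026-125130275 (plus) and chr1:124867880-124868129 (minus), and capitals mark GGGCGG or its reverse complement CCGCCC, the GC box.
PLPPR5: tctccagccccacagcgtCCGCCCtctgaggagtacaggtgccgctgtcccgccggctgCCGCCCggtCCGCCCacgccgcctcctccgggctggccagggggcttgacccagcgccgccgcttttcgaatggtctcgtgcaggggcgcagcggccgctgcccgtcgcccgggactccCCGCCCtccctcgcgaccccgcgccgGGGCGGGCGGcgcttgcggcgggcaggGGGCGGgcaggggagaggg
PLPPR4: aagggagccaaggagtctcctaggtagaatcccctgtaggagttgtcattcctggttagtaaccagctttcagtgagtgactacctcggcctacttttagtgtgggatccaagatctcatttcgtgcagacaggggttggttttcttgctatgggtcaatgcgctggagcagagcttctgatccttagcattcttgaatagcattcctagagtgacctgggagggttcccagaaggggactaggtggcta
The PLPPR5 window was 79.2% G or C and held 7 matches, 2 of which overlap, and other PLPPR5 transcripts start upstream of it. The PLPPR4 window was 50% G or C and held none. Over 21096 windows of the same length the median was 57.6%, and 43.8% held at least 1 match. TAATCC, the letters bound by photoreceptor homeobox factors such as CRX, was in neither window and in 9.14% of all windows. These are counts of letters in 1 window and not of sites in use.

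The libraries held 90634306 to 146519011 UMIs (unique molecular identifiers, each tagging 1 RNA molecule). After filters 83192 cells were clustered, of which 64.6% fell in clusters named by their markers, and 135 to 255 cell barcodes were shared by any 2 libraries. Transgene UMIs went against the label in 2 libraries labelled uninjected: huRPE65, the feature for the RPE65 transgene, was seen in 32.3% of rod-like cells of the left NHP1 library and coRPGR, that for RPGR, in 13.9% of those of the right NHP2 library, in cells thinned to 3000 UMIs. Another 22654 cells, in 8 clusters, had rod markers but under 0.3% mitochondrial UMIs and were left unnamed. They are given beside the rod-like cells as low-mitochondrial rod-marker cells. Levels are UMIs of a gene summed over the cells of a class, divided by all UMIs of that class there and scaled to CPM. CPM is the usual unit that takes out sequencing depth. An interval in brackets is an exact Poisson 95% interval that covers counting error only. Levels are compared within a gene, not between genes. Groups said not to overlap, and eyes said to be higher in all groups, are descriptions. The share of all genes that do so was not counted.

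PLPPR5 was a gene of the inner retina and, at varied levels, of rods. Of its 17934 UMIs in cells, 35.3% came from bipolar-like cells, which were 7.53% of the cells, 23.0% from rod-like cells, 21.3% from low-mitochondrial rod-marker cells and 9.48% from amacrine-like cells. Cone-like cells, a second kind of photoreceptor, gave 0.201%.

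In bipolar-like cells PLPPR5 stood at 112 and 151 CPM in the right and left NHP1 uninjected libraries, at 109 and 152 in NHP2 uninjected, at 115 and 164 in NHP2 hRPGR and at 147 and 162 in NHP2 mScarlet. In amacrine-like cells it was at 65.9 and 101, at 90.2 and 135, at 137 and 87.9, and at 94.2 and 77.1 CPM in the same order. The 4 groups overlapped in both classes. On the log2(CPM + 1) scale the bipolar-like level was 7.11 ± 0.25 and the amacrine-like level 6.60 ± 0.36 (SD, n = 8 libraries). Horizontal-like cells followed at 24.6 CPM over all libraries, with a range from 3.96 in the right hRPGR library to 91.3 in the right NHP1 library. Both NHP1 libraries lay above all 6 NHP2 libraries there. The bipolar marker sum in horizontal-like cells was 403 and 146 CPM in NHP1. It was 250 CPM in the left hRPGR library and 22.4 to 74.3 CPM in the other NHP2 libraries, and its part was not tested.

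Rod-like cells came next at 19.3 CPM over all libraries, then ganglion-like cells at 7.32, Müller glia-like cells at 5.62, T/NK-like cells at 4.60, myeloid-like cells at 1.74 and cone-like cells at 0.876. No UMI was counted in 169 cells like retinal pigment epithelium (RPE), for which the limit set by 3 counts is a share of 1.78% of cells with a UMI and the exact binomial upper limit 2.16%. Neighbours in this order were compared over the libraries they shared by an exact two-sided sign-flip permutation test, 40 pairs over the 5 genes. NHP2 libraries share eyes, and the test treats each library as a replicate, so its p-values are not for independent eyes. None of the 40 passed after Benjamini-Hochberg adjustment, although 14 had an unadjusted p under 0.05. With 8 libraries the smallest p the test can give is 0.00781, and the smallest adjusted p was 0.0781, so for no member was the order of neighbours settled by this design. The step from bipolar-like to amacrine-like cells was 0.51 ± 0.43 (SD) on the log2 scale, higher in 7 of 8 libraries (exact permutation p = 0.0234, adjusted 0.0852).

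**Figure D1:**
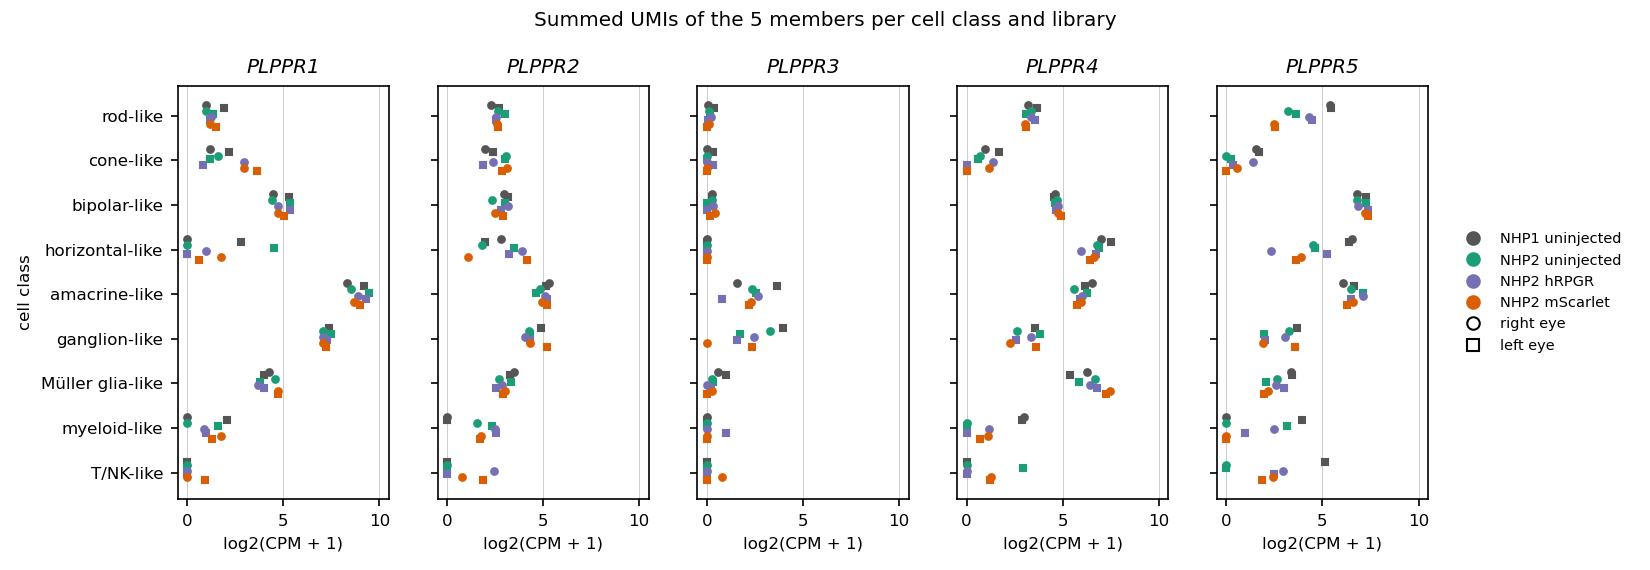
Level of each member, as log2(CPM + 1) on the horizontal axis, in 9 cell classes; each point is 1 library with at least 20 cells of the class, coloured by group and shaped by eye. PLPPR5 is spread over libraries in rod-like cells and tight in bipolar-like cells, PLPPR1 is led by amacrine-like cells, and PLPPR4 by horizontal-like and Müller glia-like cells.

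Shares of cells with a UMI were compared after thinning each cell to 3000 UMIs. PLPPR5 was then seen in 27.0% of amacrine-like cells (exact binomial 95% interval 24.5 to 29.6), in 24.2% of bipolar-like cells (23.1 to 25.3), in 10.9% of horizontal-like cells and in 4.60% of rod-like cells. In T/NK-like cells, taken as a background, the share was 1.11% (0.507 to 2.09), and in cone-like cells 0.241% (0.0884 to 0.524). Before thinning the shares were 43.4%, 34.7%, 20.8%, 8.65%, 1.94% and 1.15% at median depths of 8562, 7051.5, 11726, 6732, 4399 and 15136.5 UMIs.

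The bipolar-like class was split by its own markers, since bipolar cells that hyperpolarise to light (OFF) use the kainate receptor subunit GRIK1 and those that depolarise (ON) use GRM6, the metabotropic receptor of the rod and cone synapse. These parts are clusters of the same cells, so their levels are a description. In the 5 GRIK1-high clusters, 2402 cells, PLPPR5 ran from 269 to 376 CPM over the 8 libraries. In the 6 GRM6-high clusters, 3866 cells, it ran from 32.5 to 55.6 CPM, and no library of one part reached the other. The GRM6-high part was uneven: the 2 clusters that also held GAD2 and the most PRKCA, a marker of rod bipolar cells, stood at 2.19 CPM over all libraries, and the other 4 at 78 CPM. Those 4 differed too, with 156, 151 and 69.6 CPM in clusters 0, 24 and 21 but 2.03 CPM in cluster 23. Among the GRIK1-high clusters the level ran from 201 to 275 CPM in 4 and reached 1067 CPM in cluster 31, a group of 231 cells led by ERBB4, SLIT2 and NETO1. In the amacrine-like class, the cluster rich in GAD1, the enzyme that makes GABA, stood at 81.3 CPM, and the 2 clusters low in GAD1 lay on either side of it, cluster 33 at 369.8 CPM and cluster 34 at 35.5 CPM. Cluster 38, of 572 cells, had amacrine as its best class and GAD1 at 15.9 CPM but stayed unnamed. It held PLPPR5 at 199 CPM, from 863 UMIs that are outside the amacrine-like share.

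**Figure D2:**
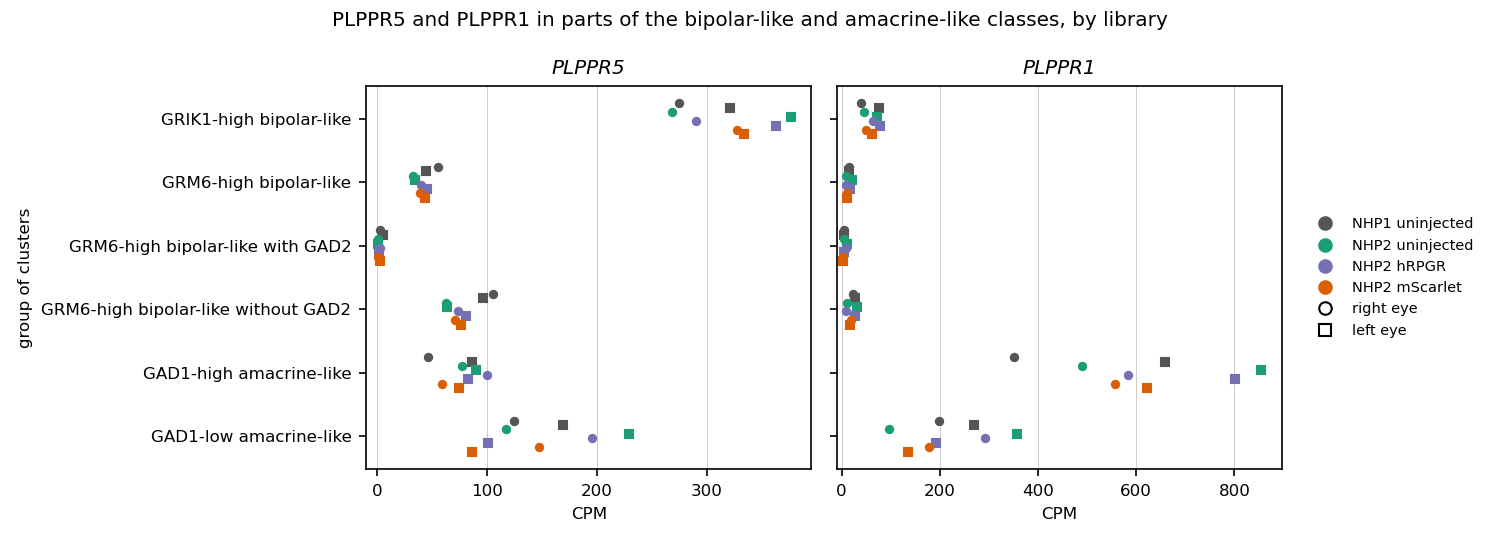
PLPPR5 (left panel) and PLPPR1 (right panel) in CPM in parts of the bipolar-like and amacrine-like classes, 1 point a library, coloured by group and shaped by eye. PLPPR5 lies between 269 and 376 CPM in GRIK1-high clusters of all 8 libraries and below 6 CPM in the GRM6-high clusters with GAD2.

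In rod-like cells PLPPR5 followed the groups. It was at 40.3 CPM (37.97 to 42.8) and 43.0 CPM (40.7 to 45.4) in the right and left NHP1 uninjected libraries, and at 8.20 (7.27 to 9.21) and 11.3 (10.0 to 12.7) in NHP2 uninjected. In NHP2 hRPGR it was at 18.7 (16.9 to 20.6) and 20.8 (19.1 to 22.6), and in NHP2 mScarlet at 4.61 (3.78 to 5.57) and 4.77 (3.96 to 5.71). The intervals of the 2 eyes overlapped in each group but NHP2 uninjected. The groups did not overlap: NHP1 was highest, then hRPGR, then NHP2 uninjected, then mScarlet. The group means were 41.7 ± 1.88, 19.7 ± 1.48, 9.74 ± 2.19 and 4.69 ± 0.112 CPM (SD, n = 2) in that order, so that the hRPGR mean was 4.21 times the mScarlet mean and 2.03 times the NHP2 uninjected mean. In the fit over NHP2 the log2 difference mScarlet minus hRPGR was -2.08 ± 0.16 (SE), mScarlet minus uninjected -1.06 and hRPGR minus uninjected 1.02. The first is the contrast that chose the gene and the other 2 share its libraries, so no test of them is given. Without the right NHP2 library labelled uninjected, hRPGR minus uninjected was 0.85 and mScarlet minus uninjected -1.24. Of 14006 genes in rod-like cells 0.0286% were called between mScarlet and hRPGR in either direction.

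Low-mitochondrial rod-marker cells came from the same libraries and are also a description. In them PLPPR5 was at 57.0 and 94.0 CPM in NHP1 uninjected, 9.37 and 23.5 in NHP2 uninjected, 36.0 and 22.1 in hRPGR, and 4.27 and 5.13 in mScarlet. The hRPGR and NHP2 uninjected libraries overlapped in these cells, and the mScarlet libraries lay below all others. In 7 of the 9 clusters with rod markers that held at least 20 cells of a library from each bleb, every hRPGR library was above every mScarlet library, though in one of them, cluster 47, mScarlet had 1 library of 28 cells and 2 UMIs. The ranges were, for example, 16.2 to 20.4 against 5.21 to 5.26 CPM in cluster 54 and 9.91 to 11.9 against 2.15 to 3.28 CPM in cluster 53, the 2 rod-like clusters that held most mScarlet cells. The exceptions were cluster 27, with 6.44 to 8.23 against 5.61 to 8.44 CPM, and cluster 58, which also had microglial genes among its leading genes. All these clusters divide the bleb libraries that chose the gene, so the count of 7 repeats that choice and is a description.

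Rod-like cells of the groups fell largely in different clusters. NHP1 cells lay in clusters 4, 5, 6 and 10, NHP2 uninjected cells in 2, 42 and 47, mScarlet cells in 53 and 54, right hRPGR cells in 53 and 54 and left hRPGR cells mostly in 2, 42 and 54. Within the NHP1 libraries PLPPR5 ran from 18.95 and 14.0 CPM (right and left) in cluster 10, with 1.36% mitochondrial UMIs, to 83.1 and 84.3 CPM in cluster 4, with 0.600%. Cluster 5, with 0.716%, held 43.2 and 44.0 CPM. Cluster 6, with 0.371%, held 62.2 CPM in 44 right cells and 35.0 CPM in 2868 left cells, so the levels did not follow the mitochondrial share in order. The mitochondrial share of rod-like cells was 0.917% and 1.08% in the hRPGR libraries and 0.988% and 0.951% in the mScarlet libraries. It was 0.949% and 0.409% in NHP1 and 0.995% and 0.968% in NHP2 uninjected. The summed level of the bipolar marker list in rod-like cells was 450 and 480 CPM in hRPGR against 454 and 479 CPM in mScarlet and that of the amacrine list was 196 and 176 against 174 and 187 CPM, so both lists overlapped between the blebs. Of 14 marker lists 11 overlapped there and 3 did not. The RPE list was at 403 and 411 CPM in hRPGR against 447 and 498 in mScarlet, the plasma cell list at 201 and 122 against 236 and 292, and the T/NK list at 7.70 and 6.76 against 5.30 and 6.36 CPM. The part of clusters, other cell types and free RNA in the PLPPR5 values was not tested.

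**Figure D3:**
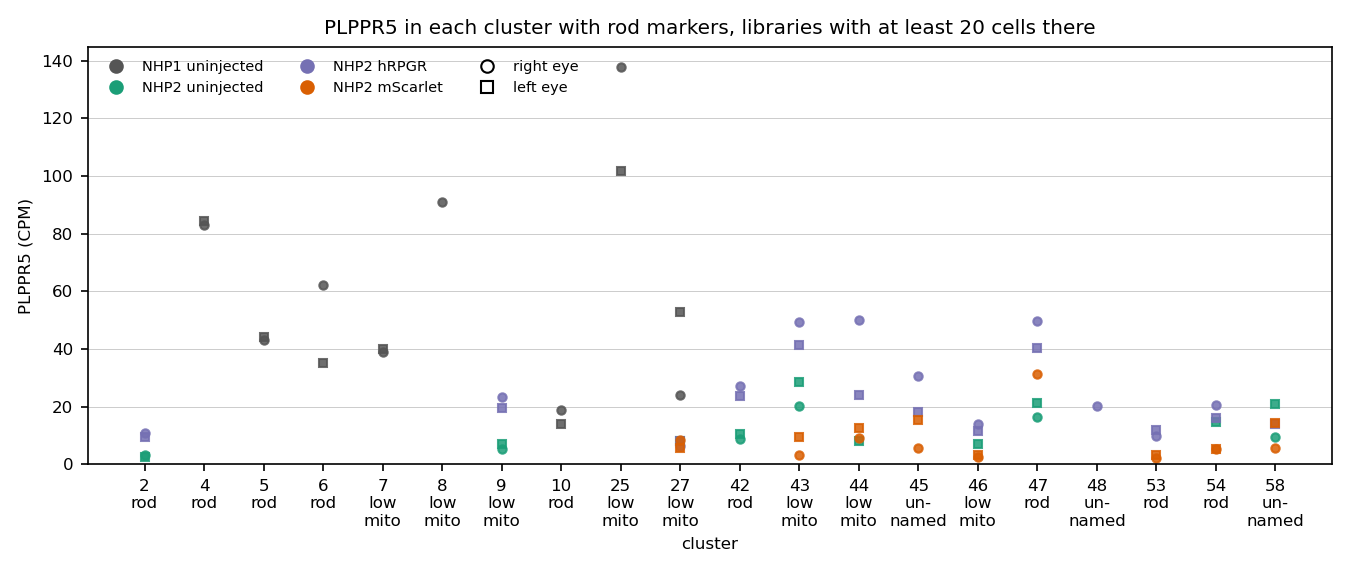
PLPPR5 in CPM (vertical axis) in each cluster with rod markers (horizontal axis, with its status: rod for rod-like, low mito for low-mitochondrial, or unnamed), 1 point for each library with at least 20 cells there. hRPGR points lie above mScarlet points in 7 of 9 clusters that hold both, in the libraries that chose the gene. NHP1 cells mostly fill clusters of their own.

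RNA outside cells was read from barcodes of 100 to 1000 UMIs. In them PLPPR5 was at 15.1 and 28.7 CPM in NHP1 uninjected, 4.82 and 10.9 in NHP2 uninjected, 14.1 and 16.3 in hRPGR and 5.95 and 13.6 in mScarlet. Rod-like cells were above this level in both NHP1 and both hRPGR libraries, and below it in the left mScarlet library. In the right mScarlet library they were lower too, but the intervals overlapped (3.78 to 5.57 in rod-like cells against 5.06 to 6.94). In NHP2 uninjected the right library was above the free RNA (8.20 against 4.82 CPM). In the left one the intervals overlapped (10.0 to 12.7 in rod-like cells against 9.83 to 12.1). In the mScarlet libraries the thinned share of rod-like cells with a PLPPR5 UMI was 1.33% (0.945 to 1.81) and 1.02% (0.699 to 1.44), against 0.866% (0.105 to 3.09) and 1.06% (0.29 to 2.69) of T/NK-like cells. Median depths were 7007 and 6555.5 UMIs in the rod-like cells and 5010 and 4425.5 in the T/NK-like cells. The intervals of these classes overlapped. Other classes of the same libraries were lower, with 0.463 CPM (0.0956 to 1.35) and 0 CPM (0 to 1.28) in cone-like cells and no UMI in 476 and 410 myeloid-like cells.

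**Figure D4:**
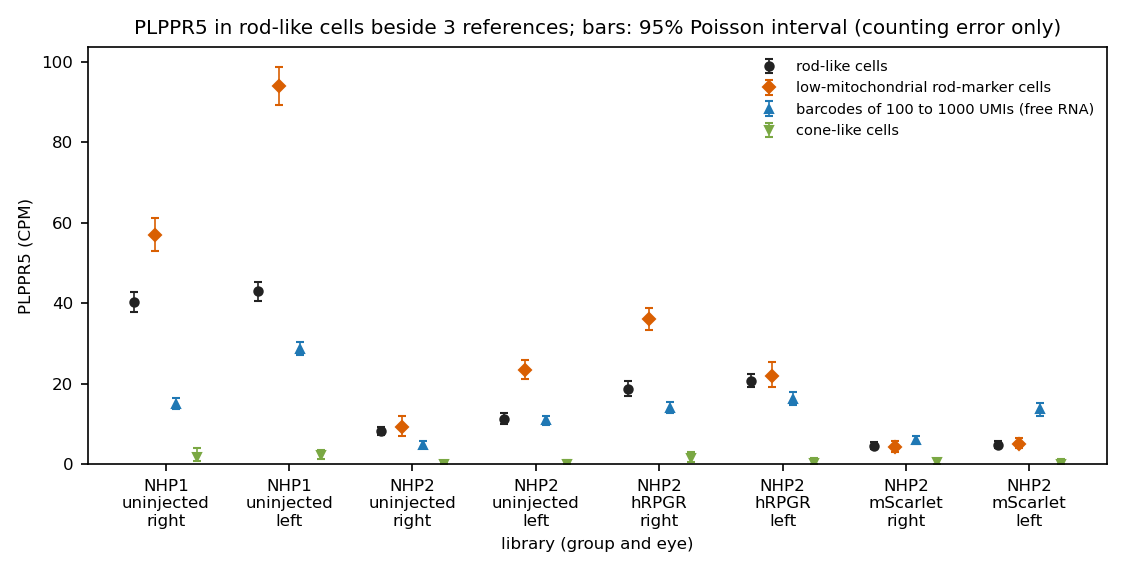
PLPPR5 in CPM (vertical axis) in each library for rod-like cells, low-mitochondrial rod-marker cells, barcodes of 100 to 1000 UMIs and cone-like cells; bars are 95% Poisson intervals for counting error only. Rod-like cells stand above the free RNA in the NHP1 and hRPGR libraries and below it in the mScarlet libraries, where the right one has overlapping intervals. Cone-like cells are at or below 2.23 CPM in all 8.

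Within a bleb, rod-like cells that carried a transgene UMI were set beside those that did not, after thinning to 3000 UMIs. In the left hRPGR library PLPPR5 was at 17.5 CPM (14.6 to 20.9) in 2337 cells with coRPGR, the codon-optimised RPGR of the vector, and at 22.9 CPM (18.7 to 27.9) in 1482 cells without it. In the right hRPGR library the values were 18.2 (15.3 to 21.4) in 2660 cells and 7.58 (0.917 to 27.4) in 88 cells, the latter from 2 UMIs. When at least 3 transgene UMIs were asked for, they were 17.8 CPM in both the 2243 cells with and the 505 cells without. In the left hRPGR library they were then 17.7 against 20.7 CPM. With 1 mScarlet UMI as the limit they were 4.29 against 3.89 CPM in the right library and 4.66 against 4.33 CPM in the left one. With at least 3 mScarlet UMIs they were 3.82 against 4.11 CPM and 1.63 against 4.66 CPM, from 3 and 1 PLPPR5 UMIs in the cells with. The intervals overlapped in all 4 libraries, and the difference itself was not tested, since cells of 1 library are not replicates. Cells without a transgene UMI may still carry the transgene.

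**Figure D5:**
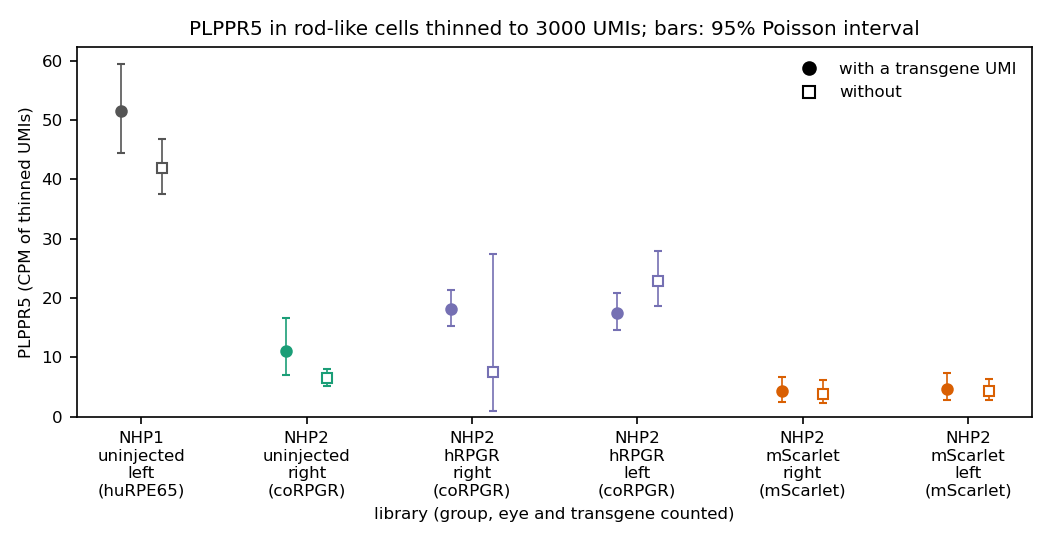
PLPPR5 (CPM of thinned UMIs, vertical axis) in rod-like cells with (filled circles) and without (open squares) a UMI of the transgene named under each library; bars are 95% Poisson intervals. The intervals of the 2 states overlap in every library shown. The hRPGR libraries stand above the mScarlet libraries among cells with a transgene UMI, which repeats the difference that chose the gene.

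The contrasts between eyes and between animals were not the one that chose PLPPR5, but the eye fit uses the bleb libraries and the animal fit takes part of its spread from them. Tests were edgeR's quasi-likelihood test on summed UMIs with Benjamini-Hochberg adjustment over all genes of a class. Between the left and right eyes of NHP2 the PLPPR5 difference in rod-like cells was 0.18 ± 0.12 (SE) on the log2 scale (edgeR adjusted p = 1.00), within the spread between libraries. Left was the higher eye in 4 of 4 groups, by 0.158 to 3.09 CPM. In amacrine-like, Müller glia-like and horizontal-like cells it was the higher in 2 of 4 groups. The NHP2 groups share their eyes, and the left eyes also had adalimumab, so side and drug cannot be told apart. Free RNA of PLPPR5 was also higher in the left library of each group, and its part was not tested. The fit between eyes holds group and eye, and its p-value measures the spread left after both. Between the eyes of NHP2 edgeR called 0 of 14006 genes in rod-like cells, that is 0%, with 135 at an unadjusted p under 0.05, and DESeq2 called 7.

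Between the uninjected retinas PLPPR5 was lower in NHP2 than in NHP1 by more than the spread between eyes. The log2 difference in rod-like cells was -2.13 ± 0.13 (SE) and the edgeR adjusted p was 0.00033, with NHP1 above NHP2 in every pairing of libraries (40.3 and 43.0 against 8.20 and 11.3 CPM). In this comparison 4.03% of 14431 genes were called, in either direction. With the 4 uninjected libraries alone it was -2.13 ± 0.15 (SE, edgeR adjusted p = 0.0133). No bleb library is among these, but those of NHP2 shared the fit of the contrast that chose the gene. The result was called under each of 10 alternatives and with each of the 8 libraries left out, among them the left NHP1 library (-2.18, adjusted p = 0.000998) and the right NHP2 library (-1.97, adjusted p = 0.00253). Where a group is left with 1 library, its spread is taken from the other groups. The left NHP1 and right NHP2 libraries, labelled uninjected, held UMIs of a transgene. The bipolar marker sum in rod-like cells overlapped between the animals (432 and 608 against 453 and 540 CPM), while the horizontal marker sum was 40.2 and 99.2 CPM in NHP1 and 8.83 and 36.2 CPM in NHP2. The rod marker sum did not overlap, at 41250.5 and 34357 CPM in NHP1 and 50606 and 42612 CPM in NHP2. The part of these sums in the result was not tested. Animal, age and the vector given elsewhere in the eye cannot be told apart in this contrast, nor can a difference in where the punches were taken.

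In other classes no test of PLPPR5 between the animals was called. The log2 difference NHP2 minus NHP1 was -1.21 ± 0.32 (SE) in Müller glia-like cells (edgeR adjusted p = 0.231), -1.92 ± 0.54 in horizontal-like cells (adjusted p = 0.295) and -4.34 ± 1.23 in cone-like cells (adjusted p = 0.143), where counts were near 0. It was -0.01 ± 0.20 in bipolar-like and 0.48 ± 0.28 in amacrine-like cells (adjusted p = 0.991 and 0.682). The first 3 had unadjusted p-values under 0.05, and the difference between classes was not tested. Free RNA of PLPPR5 differed in the same direction, at 15.1 and 28.7 CPM in NHP1 and 4.82 and 10.9 CPM in NHP2 uninjected. Its part in these class values was not tested. Over all genes of these 5 classes 0.935% of tests were called.

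Between left and right eyes the 5 tests of PLPPR5 in other classes gave no call, against 0.012% of all tests in those 5 classes. In bipolar-like cells the left eyes were higher by 0.36 ± 0.11 (SE) on the log2 scale, with an unadjusted p of 0.00803 and an edgeR adjusted p of 0.999, and left was the higher eye in 4 of 4 groups. GRIK1-high cells were 42.8%, 36.6%, 39.1% and 43.0% of bipolar-like cells in the left eyes of NHP1 uninjected, NHP2 uninjected, hRPGR and mScarlet, and 31.8%, 34.7%, 28.7% and 42.5% in the right eyes. Their part in the eye difference was not tested.

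Between the vectors PLPPR5 was tested in 5 other classes. None of 15 tests was called, against 0.209% of all tests in those 5 classes, and 1 had an unadjusted p under 0.05. In bipolar-like cells mScarlet minus hRPGR was 0.14 ± 0.18 (SE, edgeR adjusted p = 0.97), in amacrine-like cells -0.44 ± 0.26 (adjusted p = 0.711) and in Müller glia-like cells -0.98 ± 0.38 (adjusted p = 0.435). In cone-like, myeloid-like and T/NK-like cells counts were too low for the test. Free RNA of PLPPR5 was also lower in mScarlet (5.95 and 13.6 CPM) than in hRPGR (14.1 and 16.3 CPM). Its part in the Müller glia-like difference was not tested.

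PLPPR1, which promotes neurite growth, was led by amacrine-like cells. They gave 58.4% of its UMIs while being 1.80% of the cells. In the right and left libraries of NHP1 uninjected, NHP2 uninjected, hRPGR and mScarlet its level there was 313 and 591, 366 and 691, 471 and 621, and 407 and 509 CPM. The left eye was higher in 4 of 4 groups, by a log2 difference of 0.56 ± 0.19 (SE) in the NHP2 fit, which was not called (edgeR adjusted p = 0.999). The GAD1-rich cluster 29 was 71.0%, 58.6%, 52.8% and 65.7% of amacrine-like cells in the left eyes of NHP1 uninjected, NHP2 uninjected, hRPGR and mScarlet, and 52.7%, 56.9%, 46.5% and 50.4% in the right eyes, and its part in the eye difference was not tested. The GAD1-rich amacrine-like cluster held 653 CPM, and both clusters low in GAD1 were below it, cluster 33 at 453 and cluster 34 at 117 CPM. Ganglion-like cells followed at 148 CPM, bipolar-like cells at 31.0, Müller glia-like cells at 17.5 and rod-like cells at 1.47. The unnamed cluster 38, nearest to amacrine cells by its markers, held PLPPR1 at 220 CPM, from 953 UMIs outside the amacrine-like share.

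In bipolar-like cells PLPPR1 was also higher in the left eye of all 4 groups (0.60 ± 0.14, edgeR adjusted p = 0.696). It was higher in the left eye of 3 of 4 groups in rod-like cells and of 2 of 4 in Müller glia-like and horizontal-like cells. Free RNA of PLPPR1, right then left, was at 2.83 and 21.3 CPM in NHP1 uninjected and 3.596 and 11.6 in NHP2 uninjected. In hRPGR it was at 11.8 and 10.2 CPM and in mScarlet at 5.28 and 17.3. The left library was thus the higher in each group but hRPGR. The part of free RNA in the PLPPR1 eye differences was not tested. In cone-like cells PLPPR1 ran from 0.779 to 11.4 CPM, with 6.80 and 11.4 in the mScarlet libraries, 2.05 and 1.22 in NHP2 uninjected and 6.73 and 0.779 in hRPGR. The log2 difference mScarlet minus uninjected was 2.29 ± 0.78 (edgeR adjusted p = 0.226). It was called when no filter on low counts was used (adjusted p = 5.13e-05). The cone-like level was above the free RNA in the right mScarlet library (6.80 against 5.28 CPM) and below it in the left one (11.4 against 17.3). The part of free RNA in these cone-like values was not tested.

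PLPPR2 was low in all classes. It stood at 32.3 CPM in amacrine-like and 23.7 CPM in ganglion-like cells, between 5.24 and 9.49 CPM in rod-like, cone-like, bipolar-like, horizontal-like and Müller glia-like cells, and at 1.88 CPM in T/NK-like cells. In rod-like cells it was at 3.85 and 5.54 CPM in NHP1 uninjected, 5.25 and 6.98 in NHP2 uninjected, 4.90 and 4.91 in hRPGR and 5.13 and 5.33 in mScarlet. The hRPGR libraries lay below the other 4 of NHP2 and within the range of NHP1, and no test of PLPPR2 in rod-like cells was called. PLPPR3, a neuronal member linked to axon branching, had 281 UMIs in all cells, 93 of them in amacrine-like and 78 in ganglion-like cells. Its level there was 5.67 and 6.21 CPM, against at most 0.305 CPM in the other neural and glial classes, and it was too low for a test in any class. The left NHP1 library gave 46 of the 93 and 36 of the 78 UMIs. Without it the levels were 3.81 and 4.17 CPM. The unnamed cluster 38, nearest to amacrine cells by its markers, held 34 UMIs of PLPPR3.

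PLPPR4 had a pattern of its own. Horizontal-like cells held 60.5 to 181 CPM over the libraries, 98.9 CPM when pooled, and Müller glia-like cells 40.8 to 172 CPM, 93.6 when pooled. Müller glia-like cells gave 35.5% of its UMIs. Amacrine-like cells held 66.2, bipolar-like cells 24.8, rod-like cells 8.97 and cone-like cells 1.05 CPM. Low-mitochondrial rod-marker cells held 18.2 CPM. In the bipolar-like class PLPPR4 ran from 1.66 CPM in cluster 16 to 149.8 CPM in cluster 31 among the GRIK1-high clusters. It was at 1.24 CPM in the GRM6-high clusters with GAD2 and ran from 2.03 to 83.9 CPM in the other GRM6-high clusters, so these parts overlapped in PLPPR4. In rod-like cells it ran from 7.26 to 11.5 CPM, and mScarlet minus hRPGR was -0.44 ± 0.17 (SE, edgeR adjusted p = 0.617).

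In Müller glia-like cells PLPPR4 was at 75.9 and 40.8 CPM in NHP1 uninjected, 99.8 and 56.4 in NHP2 uninjected, 86.1 and 111 in hRPGR and 172 and 150 in mScarlet. The mScarlet libraries were above all others, while the hRPGR and uninjected libraries overlapped. The log2 difference mScarlet minus uninjected was 0.97 ± 0.27 (SE) and was not called by edgeR (adjusted p = 0.167). It was called by DESeq2 (adjusted p = 0.0216), and by edgeR without the right NHP2 uninjected library (1.44 ± 0.20, adjusted p = 0.0122), so the call turned on the tool and on 1 library. That fit leaves 1 uninjected library, which is assumed to vary like the other groups. The groups also fell in different Müller glia-like clusters. The mScarlet cells lay almost all in clusters 15 and 19, at 42.9 and 160 CPM over all libraries, and the left NHP2 uninjected cells mostly in clusters 13 and 18, at 36.9 and 76.5 CPM. Within cluster 19 the right NHP2 uninjected library was at 123 CPM, the hRPGR libraries at 109 and 187 and the mScarlet libraries at 201 and 183 CPM. Some marker sums in Müller glia-like cells also set mScarlet apart, while others overlapped. The rod sum was 2436 and 2109 CPM in mScarlet, below all other libraries, and the RPE sum 598 and 533 CPM, above them. The part of the clusters and of these sums in the difference was not tested.

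In the 7 classes in which any of them was tested, PLPPR1 to PLPPR4 had 57 tests of the 3 vector contrasts. edgeR called 0, with 7 at an unadjusted p under 0.05, and DESeq2 called 1 of 61, the PLPPR4 test above. Over all genes of these classes 0.271% of tests were called. Between eyes edgeR called 0 of 19 tests of these 4 genes, with 2 at an unadjusted p under 0.05, against 0.00954% of all tests in those classes. Between animals it called 0 of 16, with 1 at an unadjusted p under 0.05, against 1.54% of all tests in the 6 classes concerned.

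Cells with UMIs of 2 members were counted within a class. In bipolar-like cells 478 of 6268 held UMIs of both PLPPR4 and PLPPR5, where the product of their shares gives 263, and in amacrine-like cells 541 of 1498 held both PLPPR1 and PLPPR5, where it gives 473. Of 48 pairs in a class with a product of at least 5 cells, 44 lay above it and 4 at or below it, among them PLPPR2 and PLPPR4 in rod-like cells (55 cells against 56.1) and PLPPR2 and PLPPR5 in horizontal-like cells (5 against 10.8). Cells of more UMIs show more of every gene, and bipolar-like clusters differ in both PLPPR4 and PLPPR5, so the counts are a description.

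The lipids around the family were read from 2 lists in rod-like cells. Of the lipid phosphate phosphatases, the catalytic relatives, 7 of 9 were tested between the vectors and none was called in any of 5 contrasts. Their median log2 difference mScarlet minus hRPGR was 0.00, beside 0.00 over all 14006 genes. PLPP3, which degrades LPA at the cell surface, had the lowest p there at -1.46 ± 0.72 (SE, edgeR adjusted p = 0.683), at a mean of 0.563 CPM in rod-like and 272 CPM in Müller glia-like cells. Next came PLPP5 at 0.74 ± 0.38 and SGPP1, which dephosphorylates sphingosine 1-phosphate, at -0.23 ± 0.15.

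Of 17 genes that make, break or sense LPA and sphingosine 1-phosphate 7 were tested, and none was called. The median was -0.15 for mScarlet minus hRPGR. ENPP2, the secreted enzyme autotaxin that makes LPA, stood lowest in p in all 5 contrasts. It had a mean of 14.5 CPM in rod-like and 6835 CPM in RPE-like cells. Its log2 difference was -1.04 ± 0.22 (SE) for mScarlet minus uninjected (edgeR adjusted p = 0.0722), -0.41 ± 0.23 for mScarlet minus hRPGR (adjusted p = 0.71) and 0.87 ± 0.21 for NHP2 minus NHP1 (adjusted p = 0.0746). The part of RNA from RPE cells in these ENPP2 values was not tested. Over all genes 0.571% of tests in the 3 vector contrasts were called in rod-like cells.

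Genes with a pattern most like that of PLPPR5 were ranked by Pearson's r of log2(CPM + 1), as a description. Over 78 sums of class and library, with 13296 genes compared, they were DACH2 (0.857), EFNB3 (0.832), GPR137C (0.827), STMN1 (0.824) and TSHZ1 (0.822). DACH2, a transcriptional regulator, ran from 69.1 to 106 CPM in bipolar-like cells and from 1.91 to 3.33 CPM in rod-like cells, where it did not follow the groups. Points of 1 library share its depth and its free RNA. Over the 8 rod-like sums, with 9030 genes compared, the closest were TERB1 (0.936), RNF169 (0.933), CCS (0.933), KCTD20 (0.932) and TRERF1 (0.932). TRERF1, a zinc finger regulator, was at 10.46 and 16.8 CPM in NHP1 uninjected, 1.18 and 1.24 in NHP2 uninjected, 8.68 and 4.76 in hRPGR and 0.983 and 1.23 in mScarlet. RNF169 spanned only 18.97 to 23.9 CPM, so its high r goes with a small range.

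The nearest tested genes, 261 kb (PLPPR4) to 3970 kb (CNN3) from PLPPR5, had smaller differences in rod-like cells. Of the 3 nearest tested genes on the lower side, FRRS1, PALMD and PLPPR4, the log2 differences mScarlet minus hRPGR were -0.15 ± 0.44, -0.31 ± 0.71 and -0.44 ± 0.17 (SE). On the higher side DPYD, PTBP2 and CNN3 were at 0.10 ± 0.36, -0.15 ± 0.09 and 0.02 ± 0.08. For NHP2 minus NHP1, where PLPPR5 was at -2.13, these 6 genes lay between -0.83 (PALMD, edgeR adjusted p = 0.638) and 0.63 (FRRS1, adjusted p = 0.496), and none was called.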

How the data were processed

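Retinal cells of 2 macaques were profiled in 8 libraries. The authors deposited unfiltered count matrices of whole-number UMI counts per gene and barcode, made with Cell Ranger on Mmul_10 with 3 transgene features added; no column of the files belonged to other samples. Members and lists were chosen with earlier results of these data known.

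A barcode counted as a cell from 1500 UMIs and 300 genes upward, if mitochondrial genes gave no more than 20% of its UMIs, and the expected doublet share (0.8% per 1000 cells, by simulated doublets) was removed. Cells were clustered with scanpy 1.11.5 (3000 variable genes, 40 components, 15 neighbours, leiden resolution 2). A cluster was called "like" a class where at least 3 of its markers were raised, its score was at least 2 times the next, and no other class had more markers among the 10 leading genes; the last left 1 rod-marker cluster of 1219 cells, with the vascular marker VWF among them, unnamed. Rod-marker clusters under 0.3% mitochondrial UMIs and clusters with at least 2 haemoglobin genes among the 10 also stayed unnamed. These rules were set after the clusters were seen. Doublets and free RNA remaining were not modelled.

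UMIs were summed per class and library (at least 20 cells) and compared by the quasi-likelihood test of edgeR 4.0.16 after TMM scaling and its default filter on low counts, without a block, over the 6 NHP2 libraries, and over all 8 for the animals. The scripts were tested on simulated data. Same-numbered libraries of NHP2 come from the same eye. Their deviations in rod-like cells correlated at -0.386, -0.245 and 0.234. DESeq2 1.42.0, other scalings, filters, cell sets, cluster resolution, an eye block and leaving out each library were alternatives. Named genes were the 5 members, list members called or, if none, the 3 of lowest p, the 5 genes closest by correlation and the 3 nearest tested neighbours on each side. A further gene list is not reported here.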

Additional observations from a re-analysis of the deposited data

Results flagged for a closer look

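Transgene UMIs were counted in rod-like cells of 2 libraries labelled uninjected, a signal outside the comparisons above. The right NHP2 uninjected library held coRPGR at 160.4 CPM in rod-like cells, from 5555 UMIs and in 13.9% of cells thinned to 3000 UMIs, while the left one held 0. The left NHP1 uninjected library held huRPE65 at 553.2 CPM, from 16461 UMIs and in 32.3% of such cells, while the right one held 1 UMI. The NHP1 eyes had received AAV2-CAG-hRPE65 and the NHP2 eyes AAV8-GRK1-hRPGR in other quadrants, and how the transgene reached these punches was not tested. The paper describes hRPE65 as nearly undetectable outside the bleb, which the left NHP1 library labelled uninjected does not show. In cells thinned to 3000 UMIs PLPPR5 was at 11.1 CPM (7.02 to 16.6) in rod-like cells with a coRPGR UMI and 6.55 CPM (5.23 to 8.11) without in that NHP2 library, and at 51.5 CPM (44.5 to 59.4) with huRPE65 and 41.9 CPM (37.5 to 46.7) without in that NHP1 library. When at least 3 transgene UMIs were asked for, the values were 15.2 CPM (8.10 to 26.0) and 6.70 CPM (5.41 to 8.19) in the NHP2 library and 56.0 CPM (45.4 to 68.4) and 43.1 CPM (39.1 to 47.4) in the NHP1 library. Cells with the transgene were the higher in both libraries at both settings, and the differences were not tested. The right mScarlet library also held coRPGR in rod-like cells, at 24.4 CPM from 571 UMIs. The left mScarlet library held it at 0.596 CPM from 15 UMIs.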

How the results depend on the processing

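The lower PLPPR5 level of NHP2 than NHP1 uninjected rod-like cells kept its direction and its call in all 10 alternatives and with each of 8 libraries left out, from -2.50 to -2.10 with all libraries and from -2.31 to -1.97 with 1 library left out, and the eye difference stayed without a call. With the eye as a replicate block the animal difference was -2.14 (adjusted p = 0.00125), and it changed no call in the vector contrasts of PLPPR1 to PLPPR4 and of PLPPR5 in other classes, where it was also run. The log2 difference mScarlet minus hRPGR became -2.33 with low-mitochondrial rod-marker clusters included, and ran from -2.17 to -2.004 with 1 library left out. Alternatives for the differences from uninjected retina were added after the data were seen: mScarlet minus uninjected became -1.40 with the low-mitochondrial clusters and ran from -1.24 to -0.88 with 1 library left out, and hRPGR minus uninjected ran from 0.85 to 1.20. Including the unnamed rod-marker cluster, and the animal fit on the 4 uninjected libraries alone, which called 146 genes in place of 581, were likewise added later.

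With no filter on low counts 2 tests of PLPPR5 in other classes were called, both in myeloid-like cells where the mScarlet libraries were at 0, and 1 test of PLPPR1 to PLPPR4; DESeq2 called 1, and leaving out 1 library gave 0 to 1. Shares of cells with a UMI depend on thinning: with no thinning and with 2000 UMIs they were 72.8% and 48.3% for PLPPR1, 23.4% and 6.06% for PLPPR2, 4.81% and 1.11% for PLPPR3 and 43.4% and 19.9% for PLPPR5 in amacrine-like cells, and 63.7% and 17.9% for PLPPR4 in horizontal-like cells. With at least 3 transgene UMIs PLPPR5 in left mScarlet rod-like cells was 1.63 CPM, from 1 UMI, and in right hRPGR rod-like cells below that number it was 17.8 instead of 7.58 CPM. Of 127 values 106 kept their call or, where there was no test, stayed within the spread or counting interval of the reported value, the right hRPGR value among them. The count includes refits of the contrast that chose PLPPR5 and of those that share its libraries, which repeat that choice. It also includes the order of neighbouring classes, where few libraries left little room for a pass. Having 2 eyes of 1 animal in each group limits all of these comparisons.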
